A study of Mus musculus with 11 samples.

Results

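Fatty acid oxidation and ketone body genes were followed in whole livers of mice in which the transcriptional coactivator YAP was switched on for 3 or 7 days. The set held 35 genes of the 20889 with a unique symbol in the deposited table. It was defined by a fixed list of symbols and not by any measured value, all 35 symbols were found, and all 35 passed the filter on low values (at least 0.5 eRPKM in at least 3 libraries), which 14240 genes passed in all. By the step they serve, 19 are mitochondrial, 11 peroxisomal, 2 belong to ketone body metabolism (Bdh1 and Acat1), and 3 (Acsl1, Acot1 and Vnn1) activate fatty acids or handle coenzyme A.

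Total RNA of homogenized livers was sequenced in 11 libraries, 1 per liver, all on a C57BL/6 background. The 4 controls were labelled ROSA26-rtTA-IRES-EGFP; WT and received doxycycline in the food for 7 days. The induced mice were labelled ROSA26-rtTA-IRES-EGFP; tetYAP, with 4 livers taken after 3 days of the same food and 3 after 7 days. All 3 groups thus carried the ROSA26-rtTA-IRES-EGFP allele and ate doxycycline, and the controls lacked tetYAP. In the study's methods the tetYAP line was crossed with Alb-CRE and floxed-stop rtTA mice, so that transgene expression followed the albumin promoter. Whether the control livers carried Alb-CRE, and the age of the mice, are not given in the sources used here. Each group is a set of whole livers, which hold cell types besides hepatocytes. Values are eRPKM, the authors' count of exonic reads divided by exon length and by library depth. Fold changes are differences of the mean log2(eRPKM + 0.5), and a gene was called at a limma adjusted p under 0.01 (Benjamini-Hochberg, over all genes tested) with an absolute log2 fold change above 0.5.

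The libraries held 1250317 to 5937585 reads on genes, with a median of 3150239 for controls, 3650053 at 3 days and 5353655 at 7 days. Xist exceeded the Y-linked Ddx3y in 2 of 4 control livers (2 and 3), 2 of 4 livers at 3 days (3 and 4) and 3 of 3 at 7 days, so that both depth and an excess of Xist went with 7 days. Reads placed on Yap1 gave 13.9 to 21.1 eRPKM in the control livers, and 15.3 to 19.3 and 17.4 to 19.0 after 3 and 7 days. Whether reads of the transgene fall on that gene cannot be told from the values. Ctgf, an established YAP target, ranged over 5.20 to 14.2 eRPKM in the control livers. It stood at 15.3 to 34.2 after 3 days of induction and at 87.3 to 103 after 7 days. Cyr61, another target, covered 5.76 to 14.3, 26.8 to 53.4 and 90.5 to 91.3 eRPKM in the same order.

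Fatty acids are activated to acyl-CoA, carried into mitochondria by the carnitine shuttle, and shortened there in a cycle of dehydrogenation, hydration, a second dehydrogenation and thiolysis, with electrons passed on by the electron transfer flavoproteins. Peroxisomes run a parallel cycle that starts with an oxidase and takes very long, branched and dicarboxylic chains. In the fasted liver the acetyl-CoA that results is turned into ketone bodies, which hepatocytes export and do not themselves burn. Many of these genes are known targets of the nuclear receptor PPARA, whereas YAP acts on DNA through TEAD proteins.

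Promoters of 3 genes are shown because they belong to the entry step of the mitochondrial pathway (Cpt1a), to a strongly lowered peroxisomal enzyme (Ehhadh) and to the member with the largest fall (Bdh1, which has a pair of annotated starts). They are RefSeq windows of 300 bases on GRCm38.p6, a later build than that of the deposited table, from 250 bases before to 50 after the start, written 5′ to 3′ on the strand of the gene, with GGAATG, the core of the site that TEAD proteins bind, or its complement in capitals.
Cpt1a, chr19:3323051-3323350, plus strand: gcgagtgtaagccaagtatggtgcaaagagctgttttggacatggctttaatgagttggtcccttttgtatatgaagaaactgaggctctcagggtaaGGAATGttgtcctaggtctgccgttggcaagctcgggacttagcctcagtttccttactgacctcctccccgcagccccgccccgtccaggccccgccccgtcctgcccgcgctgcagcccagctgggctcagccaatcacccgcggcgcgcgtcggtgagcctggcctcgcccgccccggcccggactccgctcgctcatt
Ehhadh, chr16:21787785-21788084, minus strand: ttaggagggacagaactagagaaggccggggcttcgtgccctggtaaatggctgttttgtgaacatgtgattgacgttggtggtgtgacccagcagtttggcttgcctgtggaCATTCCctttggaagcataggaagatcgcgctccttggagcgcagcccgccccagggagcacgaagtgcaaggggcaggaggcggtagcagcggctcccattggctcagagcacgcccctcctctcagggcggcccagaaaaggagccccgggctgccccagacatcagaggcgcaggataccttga
Bdh1 first start, chr16:31422047-31422346, plus strand: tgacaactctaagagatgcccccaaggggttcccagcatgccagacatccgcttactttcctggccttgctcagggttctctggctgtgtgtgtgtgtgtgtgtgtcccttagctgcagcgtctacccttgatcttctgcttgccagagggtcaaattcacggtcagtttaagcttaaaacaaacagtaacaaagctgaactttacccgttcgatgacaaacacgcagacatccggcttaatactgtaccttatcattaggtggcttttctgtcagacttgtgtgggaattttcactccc
Bdh1 second start, chr16:31428503-31428802, plus strand: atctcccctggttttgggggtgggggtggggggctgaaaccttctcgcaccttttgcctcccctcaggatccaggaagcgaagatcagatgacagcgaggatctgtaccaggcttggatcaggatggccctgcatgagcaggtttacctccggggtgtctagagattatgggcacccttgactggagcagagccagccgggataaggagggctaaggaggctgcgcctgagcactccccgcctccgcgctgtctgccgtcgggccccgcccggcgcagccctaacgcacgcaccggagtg

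The match starts 152 bases before the start of Cpt1a and 137 bases before that of Ehhadh, and neither Bdh1 window holds one. Both strands were searched, in the 29 of 35 genes with a RefSeq window. There was no entry for Crat, Acaa2, Decr1, Hsd17b4, Acat1 and Vnn1. GGAATG was found in 6 of the 29 (20.7%), Cpt1a, Slc25a20, Etfb, Ehhadh, Pex11a and Acsl1, beside 16.6% of the 27025 genes in the table. The longer GGAATGT, which contains it, was found in Cpt1a and Ehhadh, 2 of 29 (6.90%) beside 4.47%. The element that PPARA binds with its partner, AGGTCA repeated after 1 base (DR1), was in none of the 29 and in 0.0481% of all genes. A looser form that includes it, with the fourth letter of each repeat free, was in none of the 29 and in 0.451% of all genes. These are matches of letters within short windows and say nothing of binding.

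After 7 days of induction 13 of the 35 genes were called lower than in control livers and none higher. The background was 5.77% of all genes tested called lower (821 of 14240) and 18.0% called higher. The 13 were Cpt2, Acadvl, Acadsb, Hadhb, Decr1, Eci1, Etfdh, Ehhadh, Acaa1b, Decr2, Crot, Bdh1 and Acsl1, with log2 fold changes from -0.59 (Acadvl) to -2.49 (Bdh1). The median over the 35 genes was -0.59, beside 0.26 over all genes tested. In 25 genes all 3 livers at 7 days lay below all 4 controls (13.3% of all genes did) and in 2, Acox2 and Vnn1, all 3 lay above (36.7%). The direction was negative for 31 of 35 members and for 5121 of all 14240 genes, a share that depended on level as given below. Of the 31, Acadm, Etfb, Hsd17b4 and Eci2 turned positive after quantile normalization. The scaling shifts all genes: their median was 0.26 as deposited, 0.02 with median-ratio size factors and -0.08 after quantile normalization, and the share of calls that were higher was 75.7%, 60.3% and 50.5%. The members' median under those 3 scalings was -0.59, -0.87 and -0.37, with 13, 19 and 15 called lower and 0, 0 and 1 (Acox2) called higher. Of all genes 5.77%, 8.99% and 12.8% were called lower under them. After 3 days no member was called.

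**Figure D1:**
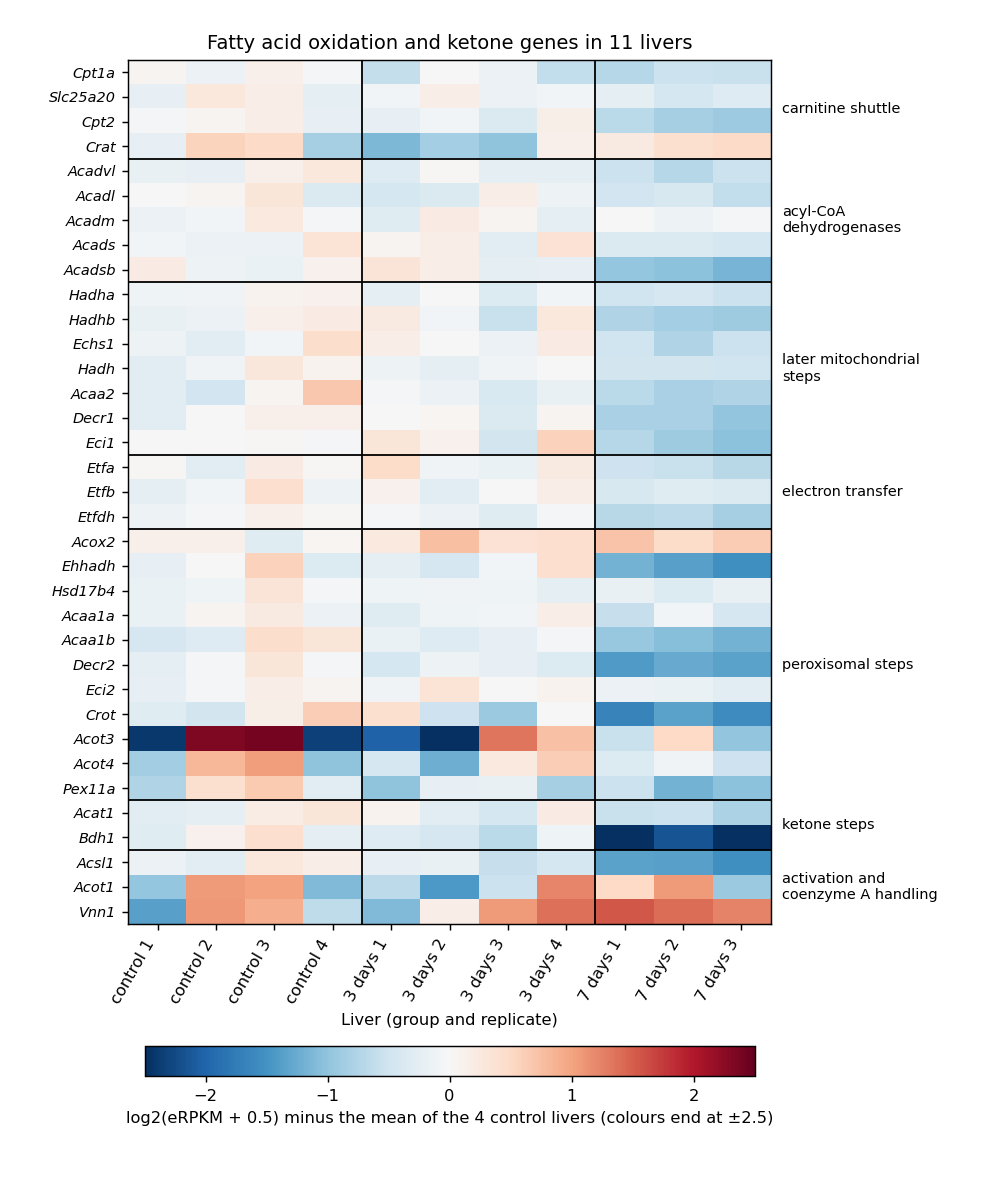
Heat map of the 35 genes (rows, ordered by role) in the 11 livers (columns); color gives log2(eRPKM + 0.5) minus the mean of the 4 control livers. The 3 livers at 7 days are blue in most rows, deepest for Bdh1 (log2 fold change -2.49), whereas Acot3, Acot4, Acot1 and Vnn1 vary mainly between livers of a group.

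The level of a gene in control livers bears on these shares, since high genes were called lower more often. Of genes with a control mean of at least 120 eRPKM, 5 of 9 members (55.6%) and 204 of all 508 genes (40.2%) were called lower. Between 60 and 120 eRPKM it was 7 of 16 members (43.8%) beside 211 of 794 genes (26.6%), and between 30 and 60 eRPKM 1 of 8 (12.5%) beside 178 of 1431 (12.4%). Both members under 30 eRPKM, Crat and Acot1, were not called, beside 1.98% of genes there. These shares lie much closer to each other than 37.1% of members and 5.77% of all genes do. Every 7-day liver lay below every control for 8 of 9 members and 346 of 508 genes of at least 120 eRPKM. It was 14 of 16 beside 430 of 794 between 60 and 120 eRPKM, 3 of 8 beside 434 of 1431 between 30 and 60, and 0 of 2 beside 687 of 11507 under 30. The direction was negative for 9 of 9 members and 492 of 508 genes of at least 120 eRPKM. It was so for 15 of 16 beside 627 of 794 between 60 and 120 eRPKM. Lower down it was 7 of 8 beside 837 of 1431 between 30 and 60, and 0 of 2 beside 3165 of 11507 under 30. From the highest class to the lowest, the members' median log2 fold change was -0.82, -0.59, -0.41 and 0.29. Over all genes it was -0.75, -0.37, -0.10 and 0.40.

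Depth moved with level in the same way. The shallowest library, control 4 (1250317 reads), stood 0.90 above control 2 (5492182 reads) in the median log2 value of genes of at least 120 eRPKM and 0.51 below it for genes under 30 eRPKM. The reads per kilobase on Alb, the albumin gene, spanned 1.28 times (1148 to 1471) over the 11 livers, while total depth spanned 4.75 times. With log2 depth as a covariate 8 of the 13 members stayed called (4.05% of all genes were called lower), the members' median became -0.47, and that of all genes 0.07. Of the 5 not called, Eci1 kept its size (-0.86, before -0.87, limma adjusted p = 0.0329). The others became smaller, with -0.39 for Acadvl (before -0.59), -0.60 for Hadhb (-0.82), -0.72 for Acaa1b (-1.06) and -0.96 for Crot (-1.52). With the 2 deepest controls only, added after the data were seen, 8 members were called lower (4.07% of all genes) and the median was -0.40 (0.13 over all genes). Acadvl, Hadhb, Eci1, Etfdh and Crot were not called there, at -0.40, -0.66, -0.87, -0.64 and -1.14. Control 2 matched the 7-day livers in depth (5309573 to 5937585 reads) and in its excess of Xist. Against control 2 alone, all 3 livers at 7 days were lower for 32 of the 35 members and 32.5% of all genes. All 3 were higher for 2 members and 44.2% of all genes. This comparison has no replication and was also added after the data were seen. For 25 members, the 13 among them, every 7-day liver already lay below all 4 controls, control 2 included. Their direction against control 2 was thus fixed beforehand and is no further support. Only the size was open, with log2 differences from -0.39 to -2.60 for the 13. By control level, all 3 were lower for 69.5% of genes of at least 120 eRPKM (8 of 9 members). The share was 64.7% between 60 and 120 eRPKM (15 of 16 members), 56.7% between 30 and 60 (7 of 8) and 25.6% under 30 (2 of 2).

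**Figure D2:**
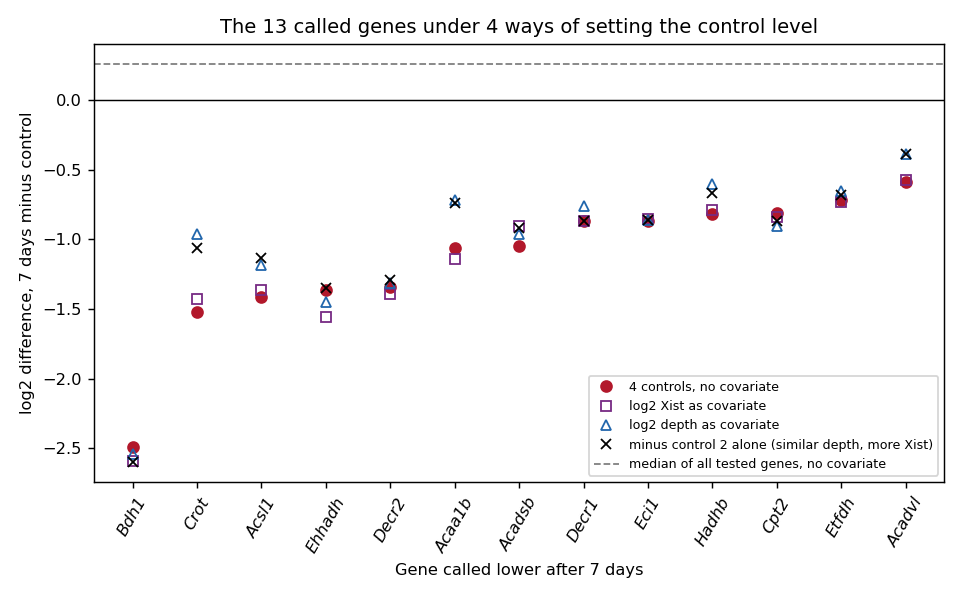
Log2 difference of the 7-day livers from control (vertical axis) for the 13 genes called lower (horizontal axis), with the 4 controls, with log2 Xist or log2 depth as a covariate, and against control 2 alone. All points lie below 0, and Crot moves most with depth, from -1.52 to -0.96.

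The carnitine shuttle moves acyl groups across the mitochondrial membranes, and 1 of its 4 members was called. Cpt2 (chromosome 4, 107576586 to 107596215, minus strand, mm9 as for all gene positions here), the inner membrane transferase that returns the acyl group to coenzyme A, had 73.4, 78.2, 83.4 and 65.0 eRPKM in control livers 1 to 4, 65.1, 71.1, 58.2 and 82.3 at 3 days and 46.5, 41.7 and 39.6 at 7 days. The 7-day livers lay below all others. Cpt2 fell 1.75-fold at 7 days (log2 fold change -0.81, SE 0.15, limma adjusted p = 0.00119), from 75.0 ± 7.79 (SD, n = 4) to 42.6 ± 3.57 (SD, n = 3). Cpt1a, the outer membrane transferase that sets the rate of entry, went from 131 ± 10.7 (SD, n = 4) to 86.3 ± 6.13 (SD, n = 3). Its log2 fold change of -0.60 (SE 0.17) did not pass the threshold (limma adjusted p = 0.0143), although all 3 livers lay below all controls, and 3 of 4 did so already at 3 days. With median-ratio size factors Cpt1a was called (-0.88, limma adjusted p = 0.00373), and after quantile normalization it was -0.23 (limma adjusted p = 0.374). Slc25a20, the carnitine-acylcarnitine carrier, changed by -0.33 (SE 0.16, limma adjusted p = 0.113).

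Crat, which makes acetylcarnitine, stood apart from the other members of the shuttle. It had 10.7, 18.6, 17.4 and 6.79 eRPKM in controls, 5.40, 6.67, 5.92 and 13.7 at 3 days and 14.7, 16.5 and 17.5 at 7 days. Controls spanned the 7-day livers, and 3 of 4 livers at 3 days lay below all controls. Its difference from control was -0.71 on the log2 scale after 3 days (SE 0.33, limma adjusted p = 0.411) and 0.37 after 7 days (SE 0.35, limma adjusted p = 0.439). The latter turned to -0.04 after quantile normalization, -0.15 in livers with more Xist only and -0.16 with depth as a covariate.

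The acyl-CoA dehydrogenases take the first step of the mitochondrial cycle, each on its own range of chain lengths. Acadsb and Acadvl were called lower, and Acadl, Acads and Acadm were not. Acadsb (chromosome 7, 138554115 to 138589725, plus strand), which acts on short branched chains from isoleucine, had 81.7, 65.1, 63.2 and 76.6 eRPKM in controls, 88.8, 80.3, 60.7 and 61.8 at 3 days and 36.0, 34.8 and 31.7 at 7 days. Controls and 3-day livers overlapped throughout, and the 7-day livers lay well below both. Its 7-day fall was 2.07-fold (log2 fold change -1.05, SE 0.17, limma adjusted p = 3.8e-04). Acadvl, the very long chain enzyme, had 87.3, 86.0, 108 and 120 eRPKM in controls, 79.8, 101, 84.4 and 84.7 at 3 days and 68.2, 60.5 and 68.5 at 7 days. No 7-day liver reached a control. The log2 fold change of -0.59 (SE 0.15, limma adjusted p = 0.00917) was the smallest of the 13 and lost its call in 19 of 26 alternatives. In the annotation 42.9% of the exon bases of Acadvl (chromosome 11, 69823685 to 69828913, minus strand) lie under exons of Dvl2 on the other strand, and counting was unstranded, so reads of the pair cannot be told apart there.

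Among the 3 dehydrogenases not called, the long chain enzyme Acadl changed by -0.49 (SE 0.18, limma adjusted p = 0.0489) and the short chain enzyme Acads by -0.39 (SE 0.17, limma adjusted p = 0.0947). Acadm, the medium chain enzyme, was level: control livers averaged 121 ± 14.9 eRPKM (SD, n = 4), 3-day livers 117 ± 19.0 (SD, n = 4) and 7-day livers 116 ± 5.70 (SD, n = 3). Its log2 fold change of -0.05 (SE 0.16, limma adjusted p = 0.817) was within the spread between livers, and its sign depended on the setting (0.39 after quantile normalization).

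The later mitochondrial steps hydrate, oxidize and cleave the chain, with auxiliary enzymes for double bonds. All 7 members had every 7-day liver below every control, and Decr1, Eci1 and Hadhb were called. Decr1 (chromosome 4, 15844387 to 15872654, minus strand), a reductase for unsaturated chains, had 71.5, 85.6, 93.7 and 93.1 eRPKM in controls, 86.0, 88.8, 66.1 and 89.1 at 3 days and 48.2, 48.5 and 42.9 at 7 days. Liver 3 at 3 days stood below the other livers of its group, and the 7-day livers lay below all others. The log2 fold change was -0.87 (SE 0.15, limma adjusted p = 7.8e-04). Eci1 (chromosome 17, 24563628 to 24576261, plus strand), an isomerase that shifts double bonds, had 76.9, 76.1, 78.7 and 74.7 eRPKM in controls, 94.8, 82.6, 55.8 and 115 at 3 days and 46.3, 41.4 and 37.5 at 7 days. Its controls were the most even of all members (SD 0.03 on the log2 scale), 3 of 4 livers at 3 days lay above all of them and the fourth below. At 7 days it changed by -0.87 on the log2 scale (SE 0.20, limma adjusted p = 0.00471).

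Hadhb and Hadha encode the subunits of the trifunctional protein, and their genes lie back to back on chromosome 5 with 85 bases between them. Hadhb (30481788 to 30511133, plus strand) had 109, 111, 135 and 143 eRPKM in controls, 145, 118, 83.4 and 148 at 3 days and 73.4, 68.6 and 66.9 at 7 days. The 7-day livers lay below all others, and the 3-day livers ran from below to above the controls. Hadhb changed by -0.82 on the log2 scale (SE 0.20, limma adjusted p = 0.00556). Hadha (30444841 to 30481702, minus strand) changed by -0.49 (SE 0.13) and missed the threshold (limma adjusted p = 0.0115). The hydratase Echs1 (-0.60, SE 0.17), the dehydrogenase Hadh (-0.46, SE 0.14) and the thiolase Acaa2 (-0.75, SE 0.23) had limma adjusted p-values of 0.0170, 0.0230 and 0.0214 and were not called. Acaa2 had its highest value, 349 eRPKM, in control 4, the shallowest library, beside 156 to 228 in the other controls, and its change was -0.23 with depth as a covariate.

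The electron transfer flavoprotein takes electrons from the dehydrogenases, and Etfdh hands them to ubiquinone. Etfdh (chromosome 3, 79407710 to 79432785, minus strand) had 39.2, 41.8, 46.8 and 43.6 eRPKM in controls, 42.1, 38.6, 34.7 and 42.1 at 3 days and 26.4, 27.1 and 24.0 at 7 days. The spread within groups was small, and the 7-day livers lay below all others. Etfdh changed by -0.72 on the log2 scale (SE 0.13, limma adjusted p = 0.00103). The subunits of the flavoprotein were not called against control, with -0.59 (SE 0.17, limma adjusted p = 0.0172) for Etfa and -0.35 (SE 0.17, limma adjusted p = 0.126) for Etfb, although all 3 livers at 7 days lay below all controls for both. Etfa was called lower when 7 days was set against 3 days (log2 fold change -0.70, SE 0.17, limma adjusted p = 0.00827).

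Peroxisomal members were more divided, with 4 of 11 called lower, the others running from -0.92 to 0.61. Crot (chromosome 5, 8966033 to 8997324, minus strand), which puts medium chains onto carnitine for export from the peroxisome, had 115, 104, 158 and 218 eRPKM in controls, 188, 99.3, 74.8 and 142 at 3 days and 44.6, 56.4 and 47.8 at 7 days. Controls and 3-day livers were widely spread, and no 7-day liver reached them. It fell 2.87-fold (log2 fold change -1.52, SE 0.31, limma adjusted p = 0.00194), and was not called with depth as a covariate (-0.96, limma adjusted p = 0.0323). Ehhadh (chromosome 16, 21761360 to 21787917, minus strand), the bifunctional enzyme of the inducible peroxisomal pathway, had 108, 124, 186 and 97.9 eRPKM in controls, 105, 93.7, 119 and 168 at 3 days and 55.0, 48.7 and 42.7 at 7 days. The first 2 groups overlapped and the third lay below. The fall was 2.56-fold (log2 fold change -1.36, SE 0.24, limma adjusted p = 7.7e-04).

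Decr2 (chromosome 17, 26218156 to 26227274, minus strand), the peroxisomal counterpart of Decr1, had 98.8, 111, 142 and 112 eRPKM in controls, 85.0, 105, 99.1 and 90.3 at 3 days and 42.7, 47.9 and 45.0 at 7 days. The 7-day livers lay below all others. Decr2 fell 2.53-fold (log2 fold change -1.34, SE 0.15, limma adjusted p = 3.2e-05), from 116 ± 18.3 (SD, n = 4) to 45.2 ± 2.58 (SD, n = 3). The thiolase Acaa1b fell 2.09-fold (log2 fold change -1.06, SE 0.21, limma adjusted p = 0.00157), and its close copy Acaa1a changed by -0.36 (SE 0.17, limma adjusted p = 0.113). The copies share 35.5% of the 50-base windows of Acaa1b transcripts and 32.0% of those of Acaa1a, so reads could be placed on either. The D-bifunctional enzyme Hsd17b4 changed by -0.23 (SE 0.14, limma adjusted p = 0.217) and the isomerase Eci2 by -0.20 (SE 0.15, limma adjusted p = 0.309).

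Acox2, the oxidase for branched chains and bile acid intermediates, went the other way. It had 72.4, 72.7, 53.8 and 69.1 eRPKM in controls, 78.4, 113, 85.3 and 88.9 at 3 days and 110, 91.6 and 104 at 7 days. All 7 induced livers lay above all 4 controls. The log2 fold change was 0.44 (SE 0.15) at 3 days and 0.61 (SE 0.16) at 7 days, and neither was called (limma adjusted p = 0.257 and 0.0111). The exact permutation test gave p = 0.0286 for each, the smallest this design allows. The 7-day value was called with Xist as a covariate (0.68, limma adjusted p = 0.00990) and after quantile normalization (0.94, limma adjusted p = 3.9e-04). It was not called with depth as a covariate (0.52, limma adjusted p = 0.0688) or with median-ratio size factors (0.33, limma adjusted p = 0.177).

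**Figure D3:**
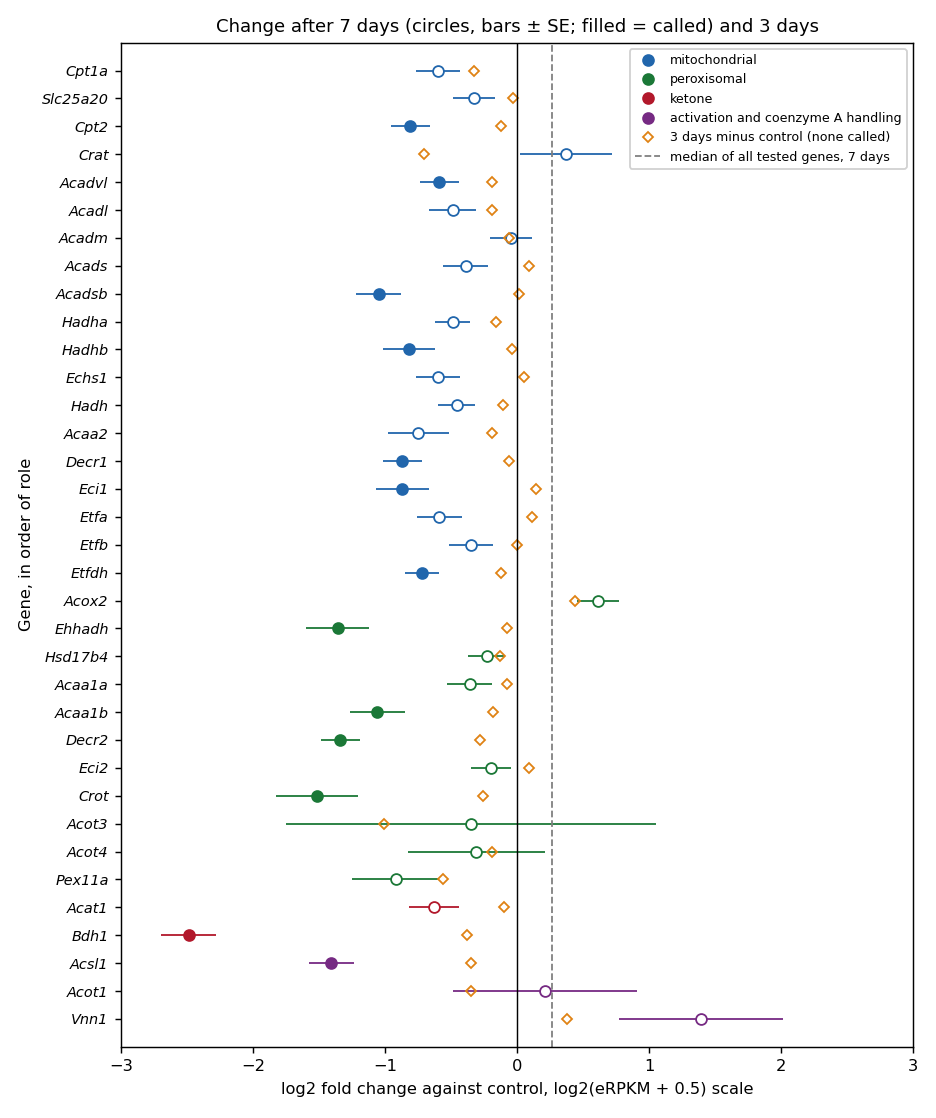
Log2 fold change against control (horizontal axis) for the 35 genes (vertical axis, in order of role) at 7 days (circles with SE, filled where called, colored by compartment) and at 3 days (diamonds). Circles lie left of 0 for 31 genes, farthest for Bdh1 (-2.49), and right of it for Crat, Acox2, Acot1 and Vnn1.

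Ketone metabolism was represented by Bdh1 and Acat1. Bdh1 (chromosome 16, 31422366 to 31458987, plus strand), the dehydrogenase that converts acetoacetate to 3-hydroxybutyrate, had 51.2, 68.8, 84.7 and 54.6 eRPKM in controls, 50.8, 47.5, 39.4 and 58.8 at 3 days and 10.1, 13.8 and 9.31 at 7 days. Of the 3-day livers, 3 lay just below all controls, and the 7-day livers lay far below every other liver. The fall at 7 days was 5.60-fold, from 64.8 ± 15.3 (SD, n = 4) to 11.1 ± 2.40 (SD, n = 3), with a log2 fold change of -2.49 (SE 0.21, limma adjusted p = 5.0e-06). It was the largest among the 35 genes and was called in each of 26 alternatives, with adjusted p-values up to 1.6e-04. Acat1, the thiolase that joins and splits acetoacetyl-CoA, had 81.3, 83.8, 112 and 120 eRPKM in controls, 104, 80.7, 72.5 and 113 at 3 days and 66.4, 67.3 and 56.3 at 7 days. The 7-day livers lay below all others, yet the log2 fold change of -0.63 (SE 0.19) did not pass (limma adjusted p = 0.0225, exact permutation p = 0.0286, the smallest possible), and with depth as a covariate it was -0.35.

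Activation and coenzyme A handling split. Acsl1 (chromosome 8, 47556395 to 47621405, plus strand), the main long chain acyl-CoA synthetase of liver, had 170, 156, 227 and 212 eRPKM in controls, 165, 166, 127 and 139 at 3 days and 74.1, 73.8 and 65.3 at 7 days. The 7-day livers were tightly grouped below all others. Acsl1 fell 2.66-fold (log2 fold change -1.41, SE 0.17, limma adjusted p = 5.1e-05). Vnn1, a pantetheinase that releases a precursor of coenzyme A, had 11.5, 65.0, 57.1 and 19.3 eRPKM in controls, 13.9, 34.1, 63.8 and 79.5 at 3 days and 89.6, 80.3 and 71.8 at 7 days. All 3 livers at 7 days lay above all controls. Its log2 fold change of 1.39 (SE 0.62) was not called (limma adjusted p = 0.0923). Acot1, a cytosolic thioesterase, changed by 0.21 (SE 0.70, limma adjusted p = 0.836), a value that turned negative in 9 alternatives.

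**Figure D4:**
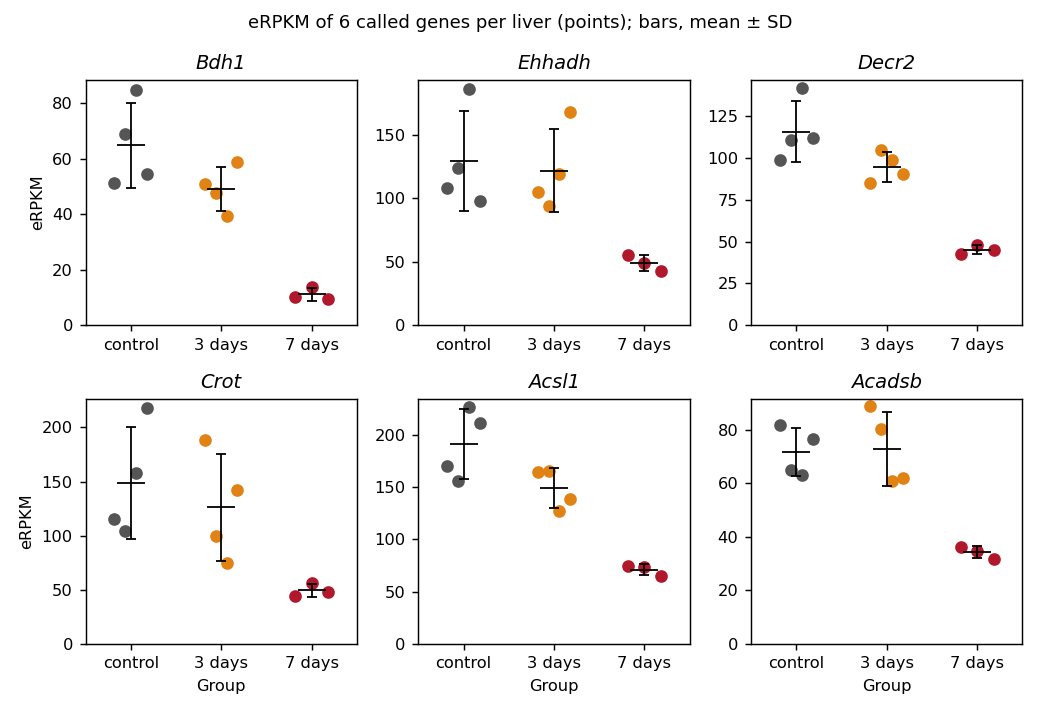
Level in eRPKM (vertical axis, from 0) of 6 called genes in each liver (points) by group, with the mean and SD. The 3 livers at 7 days lie below all controls and all 3-day livers in each panel, for example 9.31 to 13.8 eRPKM against at least 39.4 for Bdh1.

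Set side by side, the order of the mitochondrial and peroxisomal members depended on the setting. Of the mitochondrial members 7 of 19 (36.8%) were called lower at 7 days, of the peroxisomal 4 of 11 (36.4%), and of the ketone members 1 of 2. Of all genes tested 5.77% were called lower, a share that rose with level as given above. The median log2 fold change was -0.59, -0.36 and -1.56, beside 0.26 over all genes tested, and these medians were not tested against each other. The mitochondrial changes were even, from -1.05 (Acadsb) to 0.37 (Crat), with 17 of 19 genes below all controls in every 7-day liver. The peroxisomal members had 5 of 11 below and Acox2 above, beside 13.3% of all genes below and 36.7% above. The 4 called peroxisomal changes ran from -1.06 to -1.52, and the 7 called mitochondrial changes from -0.59 to -1.05. The peroxisomal median became the lower of the pair with log2 Xist as a covariate (-1.14, mitochondrial -0.57), in livers with more Xist only (-1.25 and -0.56), with depth as a covariate (-0.84 and -0.42), after quantile normalization (-0.71 and -0.37) and against control 2 alone (-1.06 and -0.40). It did not with median-ratio size factors (-0.63 and -0.87) or the 2 deepest controls (-0.31 and -0.41). Leaving out 1 liver moved it from -1.15 (without control 1) to -0.28 (without control 3), with -0.96 without control 4 and -0.77 without 7-day liver 2, while the mitochondrial median stayed between -0.66 and -0.52. The shares of calls moved as well. In livers with more Xist only 4 of 19 mitochondrial and 7 of 11 peroxisomal members were called lower, with Xist as a covariate 4 and 5, with depth 4 and 2, with median-ratio size factors 12 and 5, and after quantile normalization 8 and 5. The share of all genes called lower moved too, with 4.25%, 4.95%, 4.05%, 8.99% and 12.8% in the same order.

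Several of these genes differed between control livers with and without an excess of Xist. The most variable members among controls were Acot3, Acot1, Vnn1, Acot4 and Crat, with an SD of log2 values of 2.74, 1.20, 1.19, 1.09 and 0.65, and the most even were Eci1 (0.03), Hadha (0.11), Etfdh (0.11), Cpt1a (0.12) and Cpt2 (0.15). Acot3, a peroxisomal thioesterase, had 3.07 and 3.29 eRPKM in controls 1 and 4, and 95.7 and 100 in controls 2 and 3, which had more Xist. At 3 days it had 4.21 and 0.619 in livers 1 and 2, and 47.4 and 31.1 in livers 3 and 4, which had more Xist. At 7 days, when all livers had more Xist, it had 12.4, 26.5 and 9.16. The 7-day livers therefore lay between the control pairs, below both controls of their own kind.

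Acot4, a neighbor of Acot3 on chromosome 12 with 7420 bases between them, showed the same split. It had 25.1 and 23.0 eRPKM in controls 1 and 4, 83.7 and 96.2 in controls 2 and 3, 34.8 and 19.8 in 3-day livers 1 and 2, 54.9 and 71.7 in livers 3 and 4, and 36.8, 44.0 and 32.2 at 7 days. Pex11a, which promotes peroxisome division, had 16.4 and 22.9 eRPKM in controls 1 and 4, 37.1 and 44.5 in controls 2 and 3, 13.7, 24.3, 24.6 and 15.6 at 3 days and 19.2, 12.1 and 13.5 at 7 days. Its 3-day livers did not split with Xist. Over all livers none of these 3 was called at 7 days, with log2 fold changes of -0.35 for Acot3, -0.31 for Acot4 and -0.92 for Pex11a (limma adjusted p = 0.870, 0.662 and 0.0411). In livers with more Xist only (2 controls against 3), all 3 were called lower: Acot3 by -2.72 (limma adjusted p = 0.00123), Acot4 by -1.25 (0.00195) and Pex11a by -1.44 (0.00388). With log2 Xist as a covariate Acot3 alone of them was called (-2.15, limma adjusted p = 0.00264). Vnn1 in contrast shrank from 1.39 to 0.39 in livers with more Xist (limma adjusted p = 0.132). Of the 13 members called in all livers, 10 stayed called in livers with more Xist and with the covariate. Acadvl, Hadhb and Eci1 were not called, although their log2 fold changes moved little, to -0.55, -0.81 and -0.89 in those livers and to -0.57, -0.79 and -0.85 with the covariate (from -0.59, -0.82 and -0.87).

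**Figure D5:**
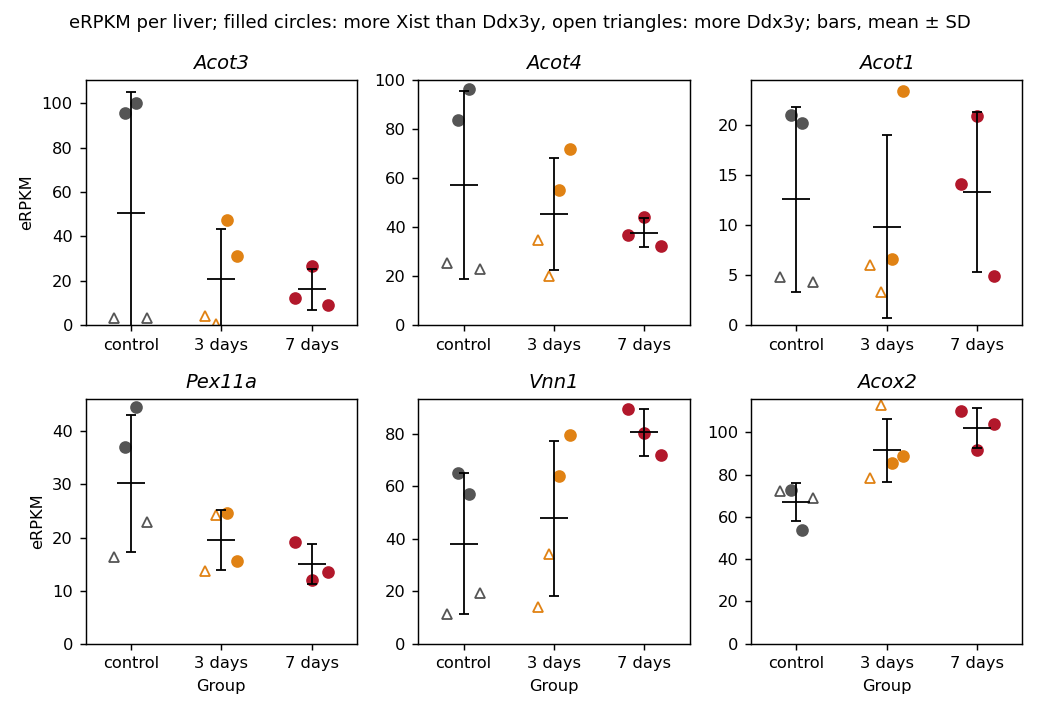
Level in eRPKM (vertical axis, from 0) of 6 genes in each liver by group, with the mean and SD; filled circles mark livers with more Xist than Ddx3y and open triangles the others. Controls split by symbol for Acot3 (3.07 and 3.29 against 95.7 and 100), Acot4, Acot1, Pex11a and Vnn1, but not for Acox2. The 3-day livers did not split this way for Pex11a (24.6 and 15.6 with more Xist against 13.7 and 24.3). For Acot1, 3-day liver 3 with more Xist (6.61) was close to liver 1 (6.04).

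At 3 days against control none of the 35 genes was called in either direction, beside 0% of all genes called lower and 0.0421% (6 of 14240) called higher. The smallest limma adjusted p was 0.257, for Acox2, and 3 members had an unadjusted p under 0.05, beside 1718 of all genes. Limma-voom on the recovered reads called none either. Acox2 was also the 1 member for which each 3-day liver exceeded each control (3.38% of all genes), and no member had all 4 below (2.25%). The median log2 fold change was -0.12 (0.02 over all genes), with -0.06 for mitochondrial, -0.18 for peroxisomal and -0.24 for ketone members. Negative values were found for 27 of 35 members and 6793 of all 14240 genes. By control level it was 9 of 9 members beside 371 of 508 genes of at least 120 eRPKM, and 10 of 16 beside 331 of 794 between 60 and 120. It was 6 of 8 beside 485 of 1431 between 30 and 60, and 2 of 2 beside 5606 of 11507 under 30. Negative members included Bdh1 at -0.38 (SE 0.19), Acsl1 at -0.35 (SE 0.16) and Cpt1a at -0.33 (SE 0.16), none of which passed the test.

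When the 7-day livers were set against the 3-day livers, 13 members were called lower and none higher, beside 5.31% and 14.0% of all genes. Level mattered here too: of genes with a control mean of at least 120 eRPKM, 5 of 9 members and 32.5% of all genes were called lower. It was 7 of 16 members beside 25.8% between 60 and 120 eRPKM, 1 of 8 beside 13.7% between 30 and 60, and 0 of 2 beside 1.65% under 30. Of all calls here 72.5% were higher as deposited, 56.3% with median-ratio size factors and 50.1% after quantile normalization. Of the 13 members, 12 were also called against control. Acadvl was called against control alone and Etfa against 3 days alone. The comparisons share the 7-day livers. Bdh1 dropped by 2.10 on the log2 scale (limma adjusted p = 2.0e-05), followed by Ehhadh (-1.28), Crot (-1.26), and Decr2, Acsl1 and Acadsb (-1.06 each). In 23 members all 3 livers at 7 days lay below all 4 at 3 days (13.8% of all genes), and for Crat all 3 lay above (31.3%, log2 fold change 1.08, SE 0.35, limma adjusted p = 0.0307). All 3 lay below for 7 of 9 members and 408 of 508 genes of at least 120 eRPKM. It was 13 of 16 beside 423 of 794 between 60 and 120 eRPKM, and 3 of 8 beside 449 of 1431 between 30 and 60. The count of 13 called was less stable than that against control: Acadsb, Decr2 and Bdh1 were called in all 26 alternatives, and 4 members remained called in livers with more Xist only. In those livers 2.82% of all genes were called lower.

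Related genes outside the set were taken from lists, and their counts are set beside all genes without matching for level. At 7 days 40.2% of genes of at least 120 eRPKM in controls were called lower. It was 26.6% between 60 and 120 eRPKM, 12.4% between 30 and 60 and 1.98% under 30. Of 22 tested enzymes of fatty acid and related oxidation, 9 were called lower and 1 higher at 7 days, beside 5.77% and 18.0% of all genes tested (median log2 fold change -0.51). Acacb, whose product malonyl-CoA blocks Cpt1a, had the largest fall, from 21.4 ± 9.93 (SD, n = 4) to 2.04 ± 0.288 eRPKM (SD, n = 3, log2 fold change -2.99, SE 0.45, limma adjusted p = 2.5e-04). Hibch of valine breakdown (-1.38, SE 0.15, limma adjusted p = 2.8e-05) and the medium chain synthetase Acsm5 (-1.31, SE 0.14, limma adjusted p = 3.0e-05) followed. The mitochondrial thioesterase Acot2 rose from 8.34 ± 6.26 (SD, n = 4) to 54.8 ± 11.6 eRPKM (SD, n = 3, log2 fold change 2.97, SE 0.64, limma adjusted p = 0.00309). It was not called with depth as a covariate (2.41, limma adjusted p = 0.0581) or with the 2 deepest controls (3.12, limma adjusted p = 0.0145). It was called with Xist as a covariate (2.15, limma adjusted p = 3.5e-05) and in livers with more Xist only (1.94, limma adjusted p = 4.2e-04). Its controls split with Xist like Acot1, at 13.2 and 14.3 eRPKM against 2.38 and 3.53, and 34.8% of the 50-base windows of Acot1 also occur in Acot2, so reads of the pair may be mixed.

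Of 38 other peroxisomal genes 16 were called lower and 2 higher, beside 5.77% and 18.0% of all genes (median log2 fold change -0.58). Hao1, the glycolate oxidase, fell from 154 ± 53.4 (SD, n = 4) to 16.2 ± 0.569 eRPKM (SD, n = 3, log2 fold change -3.15, SE 0.28, limma adjusted p = 7.0e-06). The coenzyme A hydrolase Nudt7 (-2.35, SE 0.37, limma adjusted p = 3.7e-04) and Hacl1, the lyase of alpha-oxidation (-2.03, SE 0.27, limma adjusted p = 9.8e-05), were next. Agps, an ether lipid synthase, rose (0.80, SE 0.18, limma adjusted p = 0.00348). It was not called with depth as a covariate (0.65), with median-ratio size factors (0.53), after quantile normalization (0.43), in livers with more Xist only (0.79) or with the 2 deepest controls (0.65).

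Of the ketone genes outside the set, 3 of 8 tested were called higher and 1 lower, beside 18.0% and 5.77% of all genes. Oxct1, which lets tissues other than liver use ketone bodies, rose from 4.41 ± 1.39 (SD, n = 4) to 15.7 ± 3.73 eRPKM (SD, n = 3, log2 fold change 1.74, SE 0.32, limma adjusted p = 0.00115). The monocarboxylate transporters Slc16a6 (1.20, SE 0.29, limma adjusted p = 0.00610) and Slc16a1 (0.94, SE 0.18, limma adjusted p = 0.00135) rose too. None of these 3 was called with depth as a covariate, at 1.41 for Oxct1, 0.71 for Slc16a6 and 0.83 for Slc16a1. Oxct1 stayed called with Xist as a covariate (1.65) and under both other scalings (1.48 and 1.30). Slc16a6 was not called with Xist (1.01) or after quantile normalization (0.54), and Slc16a1 not with median-ratio size factors (0.66).

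Of PPARA and its partners 3 of 16 were called lower and none higher, beside 5.77% and 18.0% of all genes. Ppara had 118, 112, 128 and 129 eRPKM in controls, 81.5, 109, 106 and 73.3 at 3 days and 41.8, 56.2 and 45.2 at 7 days. Every induced liver lay below every control. The log2 fold change was -0.41 (limma adjusted p = 0.311) at 3 days and -1.35 (SE 0.17, limma adjusted p = 7.0e-05) at 7 days. Lpin1, a coactivator of PPARA, changed by -1.79 (SE 0.43, limma adjusted p = 0.00598), and Creb3l3, a liver factor of the fasting response, by -0.93 (SE 0.15, limma adjusted p = 5.5e-04). Lpin1 was not called with depth as a covariate, at -2.22 (limma adjusted p = 0.0137). Other targets of PPARA did not share 1 direction, with 2 of 16 called lower, 1 higher (5.77% and 18.0% of all genes) and a median of 0.16. Cyp4a32, a fatty acid hydroxylase, fell (-2.56, SE 0.37, limma adjusted p = 1.8e-04), as did Fabp1, the liver fatty acid binding protein (-2.20, SE 0.35, limma adjusted p = 3.6e-04), and Ucp2, an uncoupling protein, rose (2.16, SE 0.35, limma adjusted p = 4.1e-04).

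Markers of other cell types were summed too, with calls at 7 days beside 18.0% of all genes called higher and 5.77% called lower. The summed level of 4 macrophage markers was 134 to 259 eRPKM in control livers, 167 to 315 after 3 days and 459 to 532 after 7 days, with Cd68 and Csf1r called higher. For 5 bile duct markers the sum was 37.5 to 49.0, 40.5 to 84.5 and 61.5 to 111 eRPKM, with 1 called higher, and for 4 endothelial markers 42.3 to 82.2, 52.4 to 80.5 and 94.2 to 128, with 1 called higher. Most of the bile duct sum was Spp1 (49.9 to 96.2 eRPKM after 7 days), which was not called (limma adjusted p = 0.0477). Of the endothelial markers Lyve1 was called, and Kdr was level (log2 fold change -0.06). Lymphocyte markers summed to 3.05 to 6.59, 0.609 to 3.58 and 4.75 to 12.6 eRPKM, with 0 of 4 called. Stellate cell markers summed to 156 to 217, 131 to 276 and 108 to 127 eRPKM, with 1 of 6 called lower. Muscle and fat markers reached at most 4.48 eRPKM in any liver, and Ckm and Myh1 were at or near 0. The 8 hepatocyte markers summed to 1848 to 5812 eRPKM in control livers, 2325 to 3086 after 3 days and 1563 to 1753 after 7 days, with 1 of 8, Ttr, called lower. At 7 days the log2 fold changes of these 8 markers ran from -0.68 (Trf) to -1.40 (Ttr). With log2 depth as a covariate they ran from 0.10 (Trf) to -0.79 (Ttr), with Alb at -0.07, and Ttr alone was called. In whole liver, fewer hepatocytes, less RNA per hepatocyte and library depth cannot be told apart here. The part of these cell types in the members' changes was not tested.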

How the data were processed

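Bulk RNA-seq of 11 livers was analyzed. Per the labels and the study's methods, the authors aligned paired reads, after masking bases of low quality, to mm9 with TopHat2 2.0.8 without strand information and counted them with featureCounts 1.4.5-p1. The deposited values are eRPKM, a kind of RPKM. The gene annotation and the treatment of duplicate reads are not given in the sources used here. The authors also deposited their own DESeq2 comparison of 7 days with control, as a mean signal of scaled reads, a log2 value and an adjusted p-value per gene, and these columns were not used.

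The limma fit (version 3.58.1, R 4.3.3, lmFit and eBayes with a trend) took log2(eRPKM + 0.5) of all 3 groups, for the 14240 genes that reached 0.5 eRPKM in 3 or more libraries. This pseudocount makes changes of low genes look smaller on the log2 scale. Calls were made at a Benjamini-Hochberg adjusted p below 0.01 with a log2 fold change beyond 0.5 in size. Single genes were also given exact two-sided permutation tests (70 or 35 splits, smallest p 0.0286). Groups came from the labels. Each library is 1 liver, and p-values measure the spread between these livers only. Whole reads were recovered from the steps of the values (100% of 177509 values above 0, within 0.1 read) and gave the depths and a limma-voom alternative. In all, 4 rows with a repeated symbol were left out. The limma step was tested on simulated data. Alternatives changed the pseudocount, filter, scaling, threshold, covariates (Xist, depth, label suffix), replicate block and the livers used. The 2 deepest controls, control 2 alone and the classes of level were added after the data were seen.

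Values per liver were printed for up to 3 called members of each role, the ketone members, and members against the direction of their role. The 5 most and 5 least variable among controls were named too, and from each list of related genes the up to 3 called with the largest changes in each direction, plus Ppara. Some genes of these lists that the rule names are not reported here. Members and lists were chosen with earlier results of these data known. Acsl3 and Adgre1 were not analysed here. Positions are from GENCODE M1 (mm9). Other steps used Python 3.11.15 with numpy 2.4.6 and pandas 2.3.3, scipy 1.17.1 for exact tests and matplotlib 3.10.9 for figures.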

Additional observations from a re-analysis of the deposited data

Results flagged for a closer look

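Of 70 sets of 4 livers (35 genes in the controls and at 3 days), 3 had a liver far from the others by Dixon's ratio of its gap to the range, beside about 1 in 20 by chance. Acads had its highest control in control 4 (ratio 0.838), Acox2 its lowest in control 3 (0.831), and Decr1 its lowest 3-day value in liver 3 (0.883).

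For 13 genes the effect of 7 days differed from that of 3 days by the test of the step itself. The log2 fold change of 7 against 3 days was -0.68 for Cpt2, -1.06 for Acadsb, -0.79 for Hadhb, -0.81 for Decr1, -1.01 for Eci1, -0.70 for Etfa, -0.60 for Etfdh, -1.28 for Ehhadh, -0.88 for Acaa1b, -1.06 for Decr2, -1.26 for Crot, -2.10 for Bdh1 and -1.06 for Acsl1. In livers with more Xist only, Acadsb, Ehhadh, Decr2 and Bdh1 remained called.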

How the results depend on the processing

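Against control at 7 days, 7 of the 13 calls (Cpt2, Acadsb, Decr1, Ehhadh, Decr2, Bdh1 and Acsl1) held in all 26 alternatives, and against 3 days 3 of 13 (Acadsb, Decr2 and Bdh1). Called lower against control were 8 with log2 depth as a covariate (4.05% of all genes, 5.77% in the main fit). It was 8 with the 2 deepest controls only, added after the data were seen (4.07%), and 22 at an adjusted p under 0.05 with any fold. The share of all genes at that threshold is not given here. Called lower against 3 days were 7 without the eBayes trend (4.14% of all genes, 5.31% in the main fit), 7 with depth (4.13%) and 4 in livers with more Xist only (2.82%). Leaving out 1 liver gave 8 to 14 called lower against control (8 without liver 3 at 7 days, 3.29% of all genes). Against 3 days it gave 4 to 14. There were 8, 7 and 7 without 3-day livers 1, 2 and 4 (3.76%, 4.16% and 3.41% of all genes). Without 7-day livers 1, 2 and 3 there were 7, 6 and 4 (2.91%, 2.82% and 2.56%). 1 gene, not 0, was called higher against control after quantile normalization, in a fit of the 2 groups only, with Xist or the label suffix MF as a covariate, by limma-voom and at an adjusted p under 0.05, and 1 against 3 days after quantile normalization and at an adjusted p under 0.05. Leaving out 1 liver gave 0 to 1 called higher in both.

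Same-numbered livers did not deviate together (correlations -0.22 to 0.27 over 10 pairs, 2 above 0.1, 2 of 11 livers closest to their own number). With the replicate number as a block 10 were called lower against control (not Acadvl, Hadhb and Eci1) and 7 against 3 days, beside 4.83% and 3.87% of all genes. No member was called at 3 days in any alternative. Over all genes tested, 2560 were called higher and 821 lower against control at 7 days, 1099 and 577 with depth as a covariate, 1945 and 1280 with median-ratio size factors and 1856 and 1819 after quantile normalization.

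The sign at 7 days turned only for genes that were not called. After quantile normalization it was -0.04 for Crat, 0.39 for Acadm, 0.07 for Etfb, 0.12 for Hsd17b4, 0.20 for Eci2 and -0.27 for Acot1. Crat was -0.15 in livers with more Xist only and -0.16 with depth. Acadm was 0.04 with the MF suffix and 0.05 with the 2 deepest controls. Acot1 was -0.05 with median-ratio size factors, -0.47 with Xist, -0.82 in livers with more Xist only, -0.21 with the MF suffix and -0.47 with depth. Without 1 liver Acadm ranged from -0.10 to 0.03 (control 3), Acot3 from -1.15 to 0.46 (0.43 and 0.46 without controls 2 and 3), Acot4 from -0.65 to 0.03 (control 3) and Acot1 from -0.21 to 0.78 (-0.11, -0.16 and -0.21 without controls 1 and 4 and 7-day liver 2). The cause was not tested.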

Other observations

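Liver 3 at 3 days had the lowest 3-day value of several mitochondrial genes, with 55.8 eRPKM for Eci1 (82.6 to 115 in the other 3), 83.4 for Hadhb (118 to 148) and 66.1 for Decr1 (86.0 to 89.1), and of Crot (74.8, beside 99.3 to 188). Its median log2 difference from the control mean was -0.23 over mitochondrial members and -0.07 over peroxisomal members, beside 0.06 over all genes tested. The value over all genes fell with level in controls, so that low values in this liver were not particular to the members. It was -0.28 for genes of at least 120 eRPKM, -0.11 between 60 and 120, -0.02 between 30 and 60 and 0.11 under 30. The depth of this liver (3679166 reads) was close to that of 3-day livers 2 and 4.

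Reads on exons that overlap a gene on the other strand could be mixed, since counting was unstranded. Such overlaps covered 42.9% of the exon bases of Acadvl (Dvl2), 24.5% of Acot4 and 12.0% of Acot3 (both a lincRNA), 11.4% of Acaa1b (Dlec1), and at most 7.63% with any 1 gene in the other members.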
